A study of Homo sapiens with 15 samples.

Results

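The alpha-arrestins are a family of adaptor proteins, and the 5 members followed here are TXNIP, ARRDC1, ARRDC2, ARRDC3 and ARRDC4. They were chosen by gene symbol, and all 5 were listed in each of the 3 deposited tables, which hold 16109 genes between them. The cells were PC3, a prostate cancer line, and P493-6, a B cell line whose introduced MYC gene is turned off by tetracycline. PC3 was given DMSO or 8 µM MYCi975, a compound designed against the MYC protein. P493-6 was given DMSO, MYCi975 at 6 µM, or tetracycline at 0.1 µg/ml. Treatment lasted 24 h, and each of the 5 groups had 3 libraries. The labels put MYCi975 in DMSO and tetracycline in water, so tetracycline and its DMSO control also differed in solvent. Each cell type is represented by 1 established line.

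TXNIP, the thioredoxin-interacting protein, binds thioredoxin and blocks its reducing activity, and it draws glucose transporters away from the cell surface. The ARRDC proteins share its arrestin fold and carry short motifs that recruit ubiquitin ligases of the NEDD4 family to membrane cargo. Transcription of TXNIP and ARRDC4 is known to follow glucose: the sensor MondoA, encoded by MLXIP, enters the nucleus with its partner MLX when phosphorylated glucose accumulates, and binds paired E-box-like elements. MYC with MAX recognises the same core sequence and is known to oppose MondoA at these genes.

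The promoters of TXNIP, ARRDC4 and ARRDC3 are shown first. By the letters searched, a paired E-box-like element lies only in that of TXNIP. The ARRDC4 window has a single E-box, and the ARRDC3 window shown has neither. Each window is 200 bases long, ends 51 bases before the RefSeq gene start on GRCh38.p14, and is written 5′ to 3′ on the gene's strand. Capitals mark matches on either strand to 4 motifs. The E-box is CACGTG, and the variant E-box searched is CACGAG. The CCAAT box is named by its own letters, and the forkhead motif is GTAAACA. The TXNIP window is chr1:145996630-145996829 on the minus strand, the ARRDC4 window chr15:97960453-97960652 on the plus strand and the ARRDC3 window chr5:91383368-91383567 on the minus strand.
TXNIP: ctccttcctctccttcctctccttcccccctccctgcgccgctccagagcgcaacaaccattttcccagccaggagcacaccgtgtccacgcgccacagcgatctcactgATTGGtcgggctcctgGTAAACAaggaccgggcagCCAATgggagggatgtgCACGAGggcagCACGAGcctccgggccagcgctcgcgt
ARRDC4: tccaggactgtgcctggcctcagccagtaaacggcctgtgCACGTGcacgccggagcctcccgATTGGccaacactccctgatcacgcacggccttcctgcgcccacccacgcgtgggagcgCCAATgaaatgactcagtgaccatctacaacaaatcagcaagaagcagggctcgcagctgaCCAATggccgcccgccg
ARRDC3: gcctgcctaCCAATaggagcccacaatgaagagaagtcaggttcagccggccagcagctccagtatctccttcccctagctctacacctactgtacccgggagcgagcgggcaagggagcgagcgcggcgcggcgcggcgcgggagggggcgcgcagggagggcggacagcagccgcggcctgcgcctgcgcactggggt
The search covered the whole 250 bases before each start, and 8 such windows matched the 5 genes. TXNIP held 2 variant E-boxes, 5 bases apart at positions -88 to -83 and -77 to -72 from the start. A pair of that layout (CACGNG repeated after a gap of 5 bases, either strand) was present in 16 of 35116 RefSeq windows, or 0.0456%, and in no other window of the members. The single variant E-box, which lies within that pair in TXNIP, was present in 5.58% of windows. ARRDC4 held an E-box at -210 to -205, found in 6.34% of windows, and 3 CCAAT boxes. CCAAT boxes were present in 32.0% of windows, and TXNIP had 2. The forkhead motif, present in 2.98% of windows, lay at -124 to -118 in TXNIP and at -29 to -23 before the second RefSeq start of ARRDC3. TXNIP also had a TATA motif (TATATA, in 3.73% of windows) at -29 to -24. The 2 ARRDC2 windows, the ARRDC1 window and the first ARRDC3 window held at most 1 CCAAT box and none of the other motifs. These are matches of letters, and binding was not measured.

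**Figure D1:**
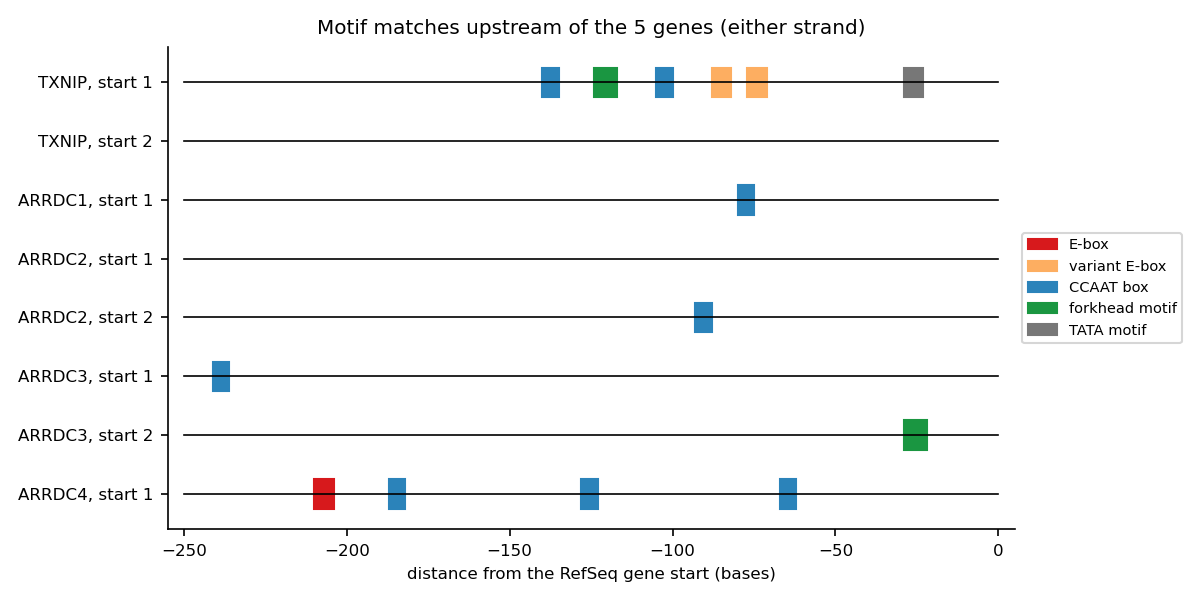
Positions of motif matches in the 250 bases before each RefSeq start of the 5 genes; the horizontal axis is the distance from the start in bases, each row is 1 start and each coloured box 1 match on either strand. TXNIP start 1 carries 2 variant E-boxes side by side and ARRDC4 carries 1 E-box with 3 CCAAT boxes.

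Expression was deposited as CPM, counts per 1000000 counted reads, and libraries held 8162582 to 15926008 reads. A rise or fall in CPM is relative to everything else in the library, and in bulk RNA fewer expressing cells and less RNA per cell cannot be told apart. MYC mRNA was 4728 ± 54.8 CPM in P493-6 controls, 149.0 ± 3.75 CPM with tetracycline and 5118 ± 29.4 CPM with MYCi975 (mean ± SD, n = 3). The PC3 means were 303.6 ± 4.96 CPM under DMSO and 374.4 ± 13.6 CPM under MYCi975. All 8 B cell markers were listed in P493-6, with summed levels of 4274 to 5181 CPM in the control and MYCi975 libraries. In PC3 only CD74 of these was listed, at 1.25 to 4.27 CPM, and 6 of 7 epithelial markers summed to 1473 to 1654 CPM. The prostate markers KLK2 and KLK3 were not listed in PC3. The labels do not state that replicate libraries are separate cultures, and p-values then measure only the spread between these samples, possibly a technical one.

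The 5 members differed widely in level. Divided by the length of their merged exons, 3625 bases for TXNIP and 3821 to 4934 bases for the others, TXNIP was the highest in both lines under DMSO. In PC3 controls the order per kilobase was TXNIP (10.2 ± 0.606 CPM per kb), ARRDC3 (7.24 ± 0.187), ARRDC2 (6.63 ± 0.281), ARRDC1 (1.59 ± 0.162) and ARRDC4 (0.685 ± 0.129). The order was the same in P493-6 controls, from TXNIP at 10.1 ± 0.763 down to ARRDC4 at 1.23 ± 0.247 CPM per kb, and no neighbours in either order had overlapping libraries. The libraries were enriched by exon capture, so probe coverage also enters these levels. With MYCi975, ARRDC3 stood above TXNIP in PC3, at 10.0 ± 0.855 against 7.47 ± 0.201 CPM per kb. Under the compound in P493-6 the libraries of ARRDC3 and TXNIP overlapped, at 9.64 ± 0.872 and 8.07 ± 0.828 CPM per kb. With tetracycline TXNIP reached 71.4 ± 2.1 CPM per kb against 16.5 ± 0.187 for ARRDC3, and ARRDC1 (4.03) passed ARRDC2 (3.29).

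**Figure D2:**
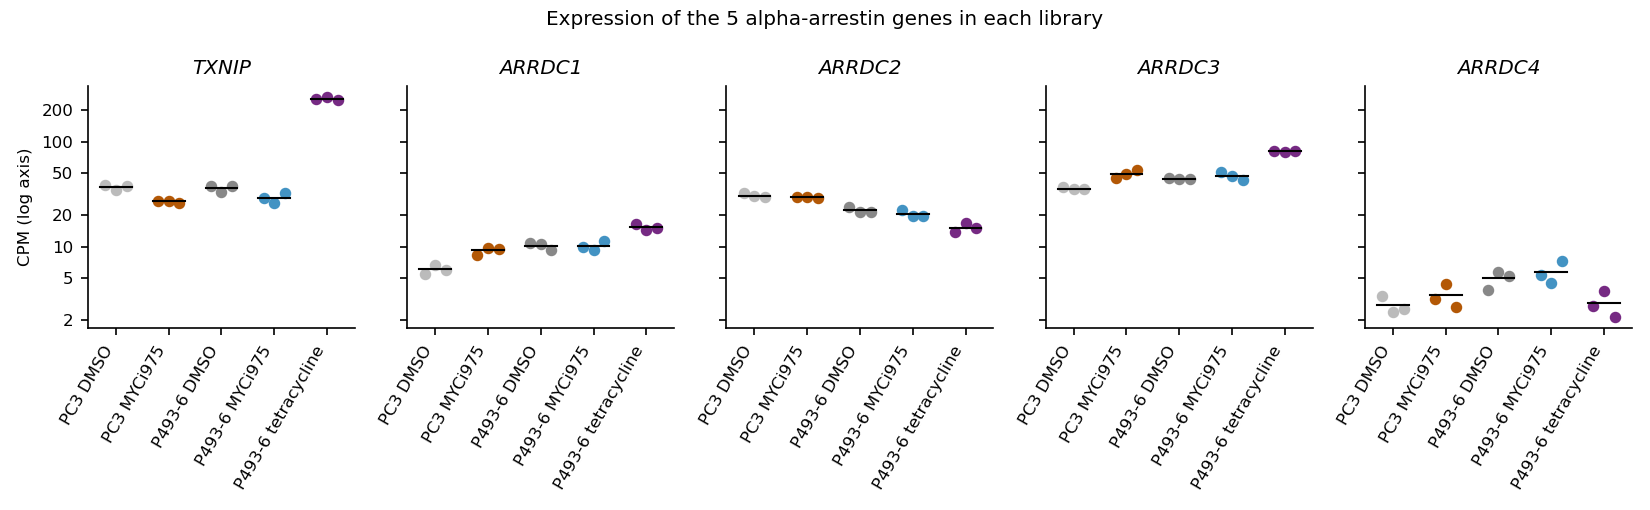
CPM of each gene on a log axis in the 15 libraries; points are single libraries and lines the means of 3. TXNIP stands at 253 to 267 CPM with tetracycline and at 26.2 to 38.6 CPM in every other library, while ARRDC4 stays between 2.12 and 7.39 CPM.

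The tetracycline comparison in P493-6 asked what follows when the introduced MYC gene is shut off. All 5 members changed: TXNIP, ARRDC3 and ARRDC1 rose, and ARRDC2 and ARRDC4 fell. Of all 13703 genes tested, 78.1% were called, 36.2% upward and 41.9% downward, so that a call on all 5 members is close to the share of all genes. Calls are at an adjusted p below 0.05 from limma, with Benjamini-Hochberg adjustment over all genes of a comparison, and fold changes are on log2(CPM + 1), which understates those of genes with few reads. The groups did not overlap for any member, and did not overlap for 78.4% of all genes.

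TXNIP had by far the largest change. It lies at chromosome 1, 145992435 to 145996600 on the minus strand of hg38 (ENSG00000265972). The P493-6 controls held 38.2, 33.5 and 38.4 CPM of TXNIP, against 256.2, 267.3 and 252.7 CPM with tetracycline. The lowest tetracycline library was thus far above the highest control. The means were 36.7 ± 2.77 and 258.8 ± 7.62 CPM, a 7.05-fold rise (2.79 on the log2 scale, SE 0.056, adjusted p = 3.59e-34), and TXNIP ranked 133 of 13703 genes by rise.

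ARRDC3, an adaptor that promotes ubiquitination of integrin beta4, has its gene on chromosome 5, 91368724 to 91383359 on the minus strand (ENSG00000113369). It went from 45.2, 44.5 and 43.9 CPM to 82.2, 80.4 and 81.6 CPM, a tight separation in every library. The rise was 1.83-fold (log2 fold change 0.86, SE 0.062, adjusted p = 8.07e-16), and 16.6% of all genes rose more. ARRDC1, which directs budding of small vesicles from the plasma membrane, lies on chromosome 9, 137605654 to 137615360 on the plus strand (ENSG00000197070). Its libraries stood at 10.8, 10.6 and 9.41 CPM under DMSO and 16.5, 14.5 and 15.3 CPM with tetracycline. It rose 1.501-fold (log2 fold change 0.54, SE 0.116, adjusted p = 6.62e-05), and 25.4% of genes rose more.

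ARRDC4 and ARRDC2 went the other way. ARRDC4, the member closest to TXNIP in its known control by glucose, lies on chromosome 15, 97960698 to 97973838 on the plus strand (ENSG00000140450). Its controls stood at 3.88, 5.81 and 5.32 CPM and its tetracycline libraries at 2.75, 3.798 and 2.12 CPM, so the highest treated library lay just under the lowest control. Its mean fell 1.73-fold, from 5.004 ± 1.01 to 2.89 ± 0.846 CPM (−0.63 on the log2 scale, SE 0.182, adjusted p = 0.00195). ARRDC4 had only 21 to 74 reads per library over all 15, and with 5 CPM added in place of 1 the fold change was −0.34 (adjusted p = 0.00118). ARRDC2, on chromosome 19, 18001132 to 18014102 on the plus strand (ENSG00000105643), fell from 23.9, 21.6 and 21.4 CPM to 13.9, 16.9 and 14.96 CPM. That is a 1.46-fold fall (log2 fold change −0.52, SE 0.102, adjusted p = 1.63e-05), with a clear gap between the groups. The summed level of the 8 B cell markers was 4274 to 4492 CPM in controls and 12750 to 13120 CPM with tetracycline. CD74 was the largest part of that sum, at 2334 ± 94.4 CPM in controls and 6761 ± 211 CPM with tetracycline. All 8 markers rose, against 36.2% of all genes. The part of this shift in the results of the members was not tested.

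The comparison of MYCi975 with DMSO in P493-6 asked whether the compound alters the same cells when the introduced MYC gene is not shut off. MYC mRNA stayed high there, but the activity of the MYC protein was not measured in these data. TXNIP was the only member called, and it fell. The 1 call of 5 compares with 28.6% of all 12998 genes, 10.6% upward and 18.0% downward. That split by direction depends on scaling: 1375 genes rose and 2338 fell as deposited, against 1822 and 1685 with TMM factors, which moved the median of all genes by 0.04 on the log2 scale.

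TXNIP stood at 29.1, 26.4 and 32.3 CPM with MYCi975 in P493-6, all below the lowest of the controls listed above, which was 33.5 CPM. Groups did not overlap for 40.0% of all genes, and TXNIP was the 1 member among them. Its mean fell 1.25-fold to 29.3 ± 3.002 CPM (−0.32 on the log2 scale, SE 0.08, adjusted p = 0.00191). That call was lost in limma without its trend and robust settings (adjusted p = 0.0648). Over leaving out each library in turn, the fold change was −0.25 to −0.39.

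The other members were not called in P493-6 with MYCi975. ARRDC3 was 51.8, 47.6 and 43.2 CPM with the compound, and the first 2 libraries were above and the third below every control. Its log2 fold change was 0.09 (95% confidence interval −0.05 to 0.23). ARRDC4 was 5.39, 4.54 and 7.39 CPM (log2 fold change 0.17, interval −0.16 to 0.49). ARRDC2 was 22.5, 19.6 and 19.8 CPM (−0.11, interval −0.29 to 0.07), and ARRDC1 was 9.92, 9.28 and 11.3 CPM (−0.02, interval −0.26 to 0.22). The groups overlapped for each of these 4 genes, so a change smaller than the intervals allow was not detectable with 3 libraries a group.

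**Figure D3:**
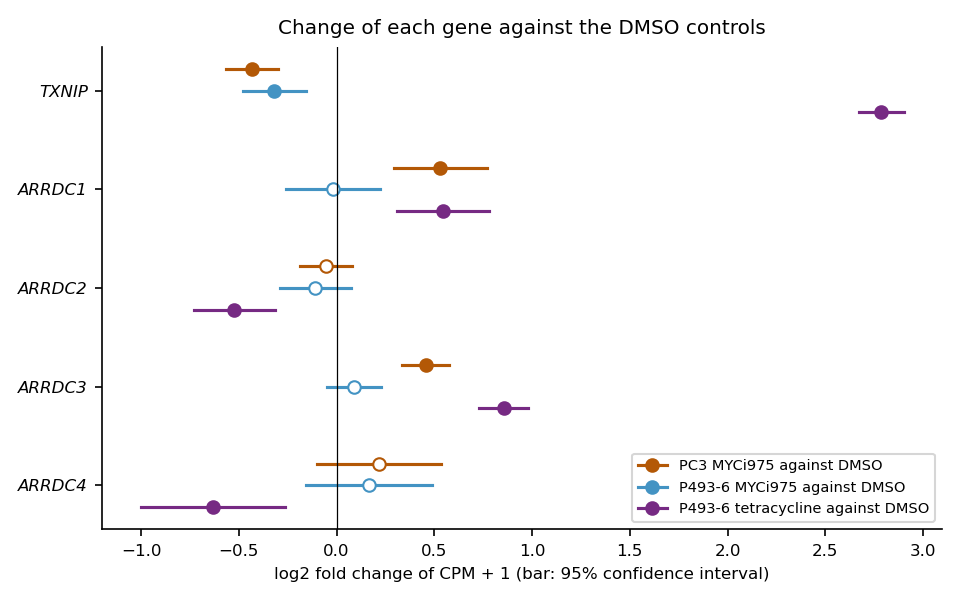
Log2 fold change of CPM + 1 against DMSO for each gene in the 3 comparisons; bars are 95% confidence intervals from limma and filled points are called at an adjusted p below 0.05. TXNIP is at 2.79 with tetracycline but at −0.32 and −0.43 with MYCi975, and ARRDC4 has its only called change, −0.63, with tetracycline.

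The comparison of MYCi975 with DMSO in PC3 asked the same of a line without the introduced gene. ARRDC1 and ARRDC3 rose, TXNIP fell, and ARRDC2 and ARRDC4 were not called. Over all 13751 genes 59.2% were called, 29.0% upward and 30.1% downward, so 3 calls of 5 is near the share of all genes. Groups did not overlap for the same 3 members, and for 61.9% of all genes.

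In PC3 the TXNIP libraries stood at 38.6, 34.4 and 37.6 CPM under DMSO and at 27.5, 27.5 and 26.2 CPM under MYCi975. The treated libraries lay close together and below all controls. With means of 36.9 ± 2.20 and 27.1 ± 0.727 CPM, this was a 1.36-fold fall (−0.43 on the log2 scale, SE 0.067, adjusted p = 2.7e-08), and 12.2% of genes fell more. ARRDC3 stood at 36.8, 35.2 and 35.2 CPM under DMSO and at 45.5, 49.0 and 53.9 CPM under the compound. It rose 1.39-fold (log2 fold change 0.46, SE 0.061, adjusted p = 2.35e-10), with every treated library above every control. ARRDC1 rose 1.52-fold, from 5.53, 6.75 and 6.00 CPM to 8.40, 9.71 and 9.61 CPM (0.53 on the log2 scale, SE 0.12, adjusted p = 7.84e-05).

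ARRDC2 hardly moved in PC3, with controls at 32.2, 30.2 and 29.8 CPM and treated libraries at 29.9, 29.8 and 28.98 CPM. Its log2 fold change was −0.05 (interval −0.19 to 0.08). ARRDC4 stood at 3.39, 2.40 and 2.58 CPM under DMSO and at 3.17, 4.46 and 2.69 CPM under MYCi975, with overlapping libraries (0.22, interval −0.10 to 0.53). The authors' deposited table gives log2 fold changes of −0.44 for TXNIP, 0.61 for ARRDC1 and 0.48 for ARRDC3 in PC3, and of 2.90 for TXNIP in P493-6 with tetracycline.

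MYCi975 and tetracycline were then compared directly over the 9 P493-6 libraries. All 5 members differed between the agents, 2 higher and 3 lower with MYCi975. Of 12860 genes 76.2% differed, 42.3% higher and 33.9% lower, or 5438 and 4356 genes, against 4900 and 4910 with TMM factors. TXNIP was lower with MYCi975 than with tetracycline by 3.11 on the log2 scale (log2 difference −3.11, SE 0.066, adjusted p = 1.16e-38). ARRDC3 (−0.77, adjusted p = 4.34e-15) and ARRDC1 (−0.56, adjusted p = 3.34e-05) were also lower with MYCi975. ARRDC4 (0.80, adjusted p = 8.73e-05) and ARRDC2 (0.41, adjusted p = 0.000205) were higher with MYCi975. The 2 P493-6 comparisons with DMSO share their control libraries.

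The effect of MYCi975 was also compared between the lines, as the fold change in PC3 minus that in P493-6, which sets side by side levels from tables made separately and doses of 8 and 6 µM. It was called for 2 of the 5 members, both upward, and for 36.3% of 11240 genes, 18.1% upward and 18.2% downward. The change of ARRDC1 was higher in PC3, where it rose, than in P493-6, where it was not called, by 0.55 on the log2 scale (SE 0.168, adjusted p = 0.00941). So was that of ARRDC3, by 0.37 (SE 0.095, adjusted p = 0.00213). For TXNIP, which fell in both lines, the difference was −0.11 (interval −0.33 to 0.11, adjusted p = 0.446). For ARRDC4 it was 0.05 (interval −0.44 to 0.54) and for ARRDC2 0.05 (interval −0.17 to 0.28).

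**Figure D4:**
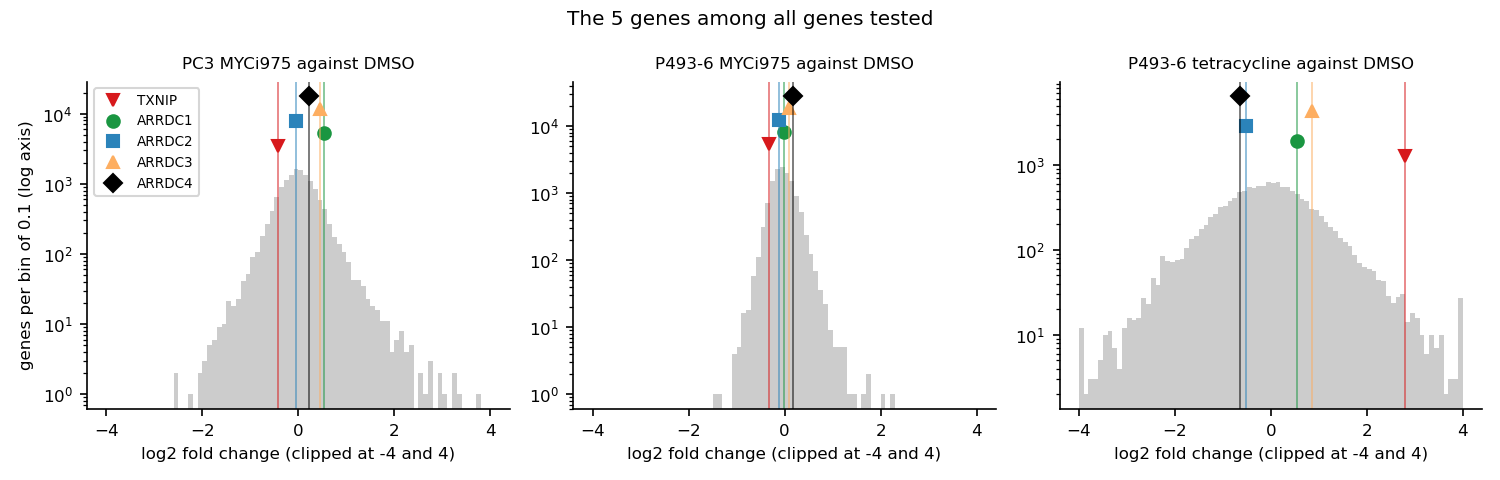
Histograms of log2 fold changes of all genes tested in each comparison (grey, genes per bin of 0.1 on a log axis, values clipped at −4 and 4), with the 5 members marked by coloured lines. With tetracycline TXNIP, at 2.79, lies in the far upper tail, where 0.963% of genes rose more, and with MYCi975 it lies on the lower side of both distributions.

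The patterns of the members were set against those of other genes by Pearson correlation over the 15 libraries, on log2(CPM + 1) minus the mean of the DMSO libraries of the same line. These values are a description, since the libraries share treatments and, in groups of 3, are not independent conditions. Among 9775 genes with a mean of at least 5 CPM, those most like TXNIP were AHNAK, a large scaffold protein (r = 0.996), ADD1, a membrane skeleton protein (0.996), IFIT1, an interferon-induced protein (0.995), ACTR2, an actin-nucleating subunit (0.995), and TMEM2 (0.994). IFIT1 had a mean difference of 4.83 with tetracycline, against −0.32 and −0.22 with MYCi975 in PC3 and P493-6. ARRDC3 was most like CREBRF, a regulator of the stress factor CREB3 (r = 0.985), followed by MARCH8, DPYSL2, PITPNM1 and CREB1 (0.981). The genes most like ARRDC1 were SESTD1 (0.963), AFF1, GPCPD1, HIF1A and NEAT1 (0.959). ARRDC2 was most like EPS15L1, an endocytic adaptor (0.981), then VPS72, PQBP1 and, at 0.963, NPEPPS. For ARRDC4 the best matches were weaker, NABP2 at 0.887 and then CCDC101, TMEM132A, EHBP1 and ZNF286A (0.874). Between members, TXNIP had r of 0.772 with ARRDC3, 0.507 with ARRDC1, −0.778 with ARRDC4 and −0.878 with ARRDC2. TXNIP moved by far the most with tetracycline (2.79), so its r values rest mainly on those libraries. In PC3 with MYCi975 it fell (−0.43) while ARRDC3 (0.46) and ARRDC1 (0.53) rose.

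Genes that act with the alpha-arrestins were followed in lists, beginning with the MondoA and MYC network. Of its 11 genes 10 were measured. With tetracycline 3 rose and 5 fell (median log2 fold change −0.16, against −0.05 for all genes, of which 36.2% rose and 41.9% fell). MYC fell by 4.98. The MAX-binding repressors of the network moved both ways with tetracycline: MXD1 (1.62), MXD3 (1.43) and MXD4 (1.10) rose, while MXI1 fell from 48.2 ± 2.43 to 12.4 ± 1.05 CPM (−1.88) and MNT fell (−0.58). With MYCi975 in PC3, 5 of the 10 rose and 2 fell, against 29.0% and 30.1% of all genes: MXD1 (1.40), MXI1 (1.02) and MNT (0.57) were among the rises, and MXD3 (−0.50) and MXD4 (−0.18) fell. In P493-6, 3 rose and none fell, against 10.6% and 18.0% of all genes, MXD1 by 0.62, MXI1 by 0.40 and MYC by 0.11. MXD4, and MNT with tetracycline, are named after their values were seen. MLXIP, which encodes MondoA and is named after its values were seen, had a log2 fold change of 0.04 with tetracycline (adjusted p = 0.561), 0.01 with MYCi975 in P493-6 (adjusted p = 0.953) and rose by 0.36 in PC3 (adjusted p = 9.74e-14). MLXIPL, the gene of the related sensor ChREBP, was in no table.

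Most other known targets of MondoA or ChREBP fell with tetracycline, while TXNIP rose. Of 10 measured with tetracycline, 8 fell and 1 rose (median −1.37, against −0.05 for all genes, of which 41.9% fell and 36.2% rose), led by the fatty acid enzymes SCD (−3.51), FASN (−3.42) and ACACA (−2.64) and the signalling regulator RGS16 (−1.80). The 1 that rose was KLF10, a transcription factor named after its value was seen (0.69, adjusted p = 5.12e-12). With MYCi975 in PC3, 1 of 9 rose and 5 fell (median −0.11; 29.0% and 30.1% of all genes), among them KHK, the fructose kinase (−0.33), and ACLY (−0.31), while KLF11 rose (0.46). Under MYCi975 in P493-6, 1 of 10 rose and 3 fell, against 10.6% and 18.0% of all genes, led by ACLY (−0.35) and SCD (−0.31).

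Glucose enters through the transporters that TXNIP acts on and is phosphorylated by hexokinases. Of 6 such genes measured with tetracycline, 3 rose and 3 fell, where 78.1% of all genes were called. The transporter gene SLC2A3 went from 5.21 ± 1.49 to 56.4 ± 4.14 CPM (3.24). The hexokinase HK2 fell from 166.9 ± 10.2 to 37.4 ± 2.70 CPM (−2.13). SLC2A4 is counted among the 3 falls (−2.53), but it stood at only 0.115 to 0.505 CPM with tetracycline. It met the filter of a CPM above 1 in at least 2 libraries only through the controls, at 5.49 to 7.27 CPM. The direction of SLC2A4 was therefore fixed by that filter and is not a result. SLC2A1, the main basal transporter, named after its values were seen, rose by 0.70 with tetracycline. In PC3 with MYCi975, 3 of 5 rose and 1 fell, where 59.2% of all genes were called: HKDC1 (2.78), HK1 (0.78) and HK2 (0.34) rose and SLC2A1 fell (−0.23). In P493-6 with MYCi975, 3 of 6 rose and 1 fell, SLC2A3 by 0.95 and HK2 by 0.19 among the rises, where 28.6% of all genes were called.

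Thioredoxin, the redox protein that TXNIP binds, was listed with TXN2, the thioredoxin reductases and the peroxiredoxins. With tetracycline 8 of 10 fell and 1 rose (median −1.22), against falls in 41.9% and rises in 36.2% of all genes. TXN itself went from 232.5 ± 13.5 to 61.5 ± 5.85 CPM (−1.90), and the peroxiredoxins PRDX4 (−2.87), PRDX2 (−1.63) and PRDX6 (−1.46) fell with it. TXNIP and TXN therefore moved in opposite directions in these libraries. In PC3 with MYCi975, 4 of 11 rose and 4 fell (median −0.07), near the 29.0% and 30.1% of all genes, with the reductase TXNRD1 (0.62) and TXN (0.25) among the rises and PRDX3 (−0.52) among the falls. In P493-6 with MYCi975, 2 of 10 rose and 3 fell (median −0.04; 10.6% and 18.0% of all genes), and TXN was not called.

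NEDD4-family ligases, which alpha-arrestins bring to their cargo, had 7 rises in 9 genes and no fall in PC3 with MYCi975 (median 0.28, against −0.0020 for all genes, of which 29.0% rose). NEDD4 rose from 27.9 ± 1.18 to 56.0 ± 3.61 CPM (0.98), and SMURF1 (0.43), HECW1 (0.43) and SMURF2 (0.41) followed. HECW1 stood at only 0.835 to 1.44 CPM under DMSO and 1.56 to 2.47 CPM under MYCi975. The P493-6 comparison with MYCi975 had 1 fall in 6 (WWP1, −0.25) and no rise, against 18.0% and 10.6% of all genes. With tetracycline 5 of 7 rose and 1 fell, against 36.2% and 41.9% of all genes, NEDD4L by 0.80 against WWP1 at −0.92. HECW2 is counted among the 5 (2.30), but its controls stood at only 0.097 to 0.737 CPM. It met the filter of a CPM above 1 in at least 2 libraries only through tetracycline, at 5.27 to 5.86 CPM. The direction of HECW2 was therefore fixed by that filter and is not a result. Among the vesicle partners of ARRDC1, 3 of 6 rose and 1 fell with tetracycline, against 36.2% and 41.9% of all genes. The ATPase gene VPS4A fell there (−0.63) and VPS4B rose (0.45). With MYCi975 in P493-6, 1 of 6 fell and none rose, against 18.0% and 10.6% of all genes. In PC3 2 of 6 rose and 2 fell, where 59.2% of all genes were called, with PDCD6IP, the gene of the sorting protein ALIX, lowest (−0.49).

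**Figure D5:**
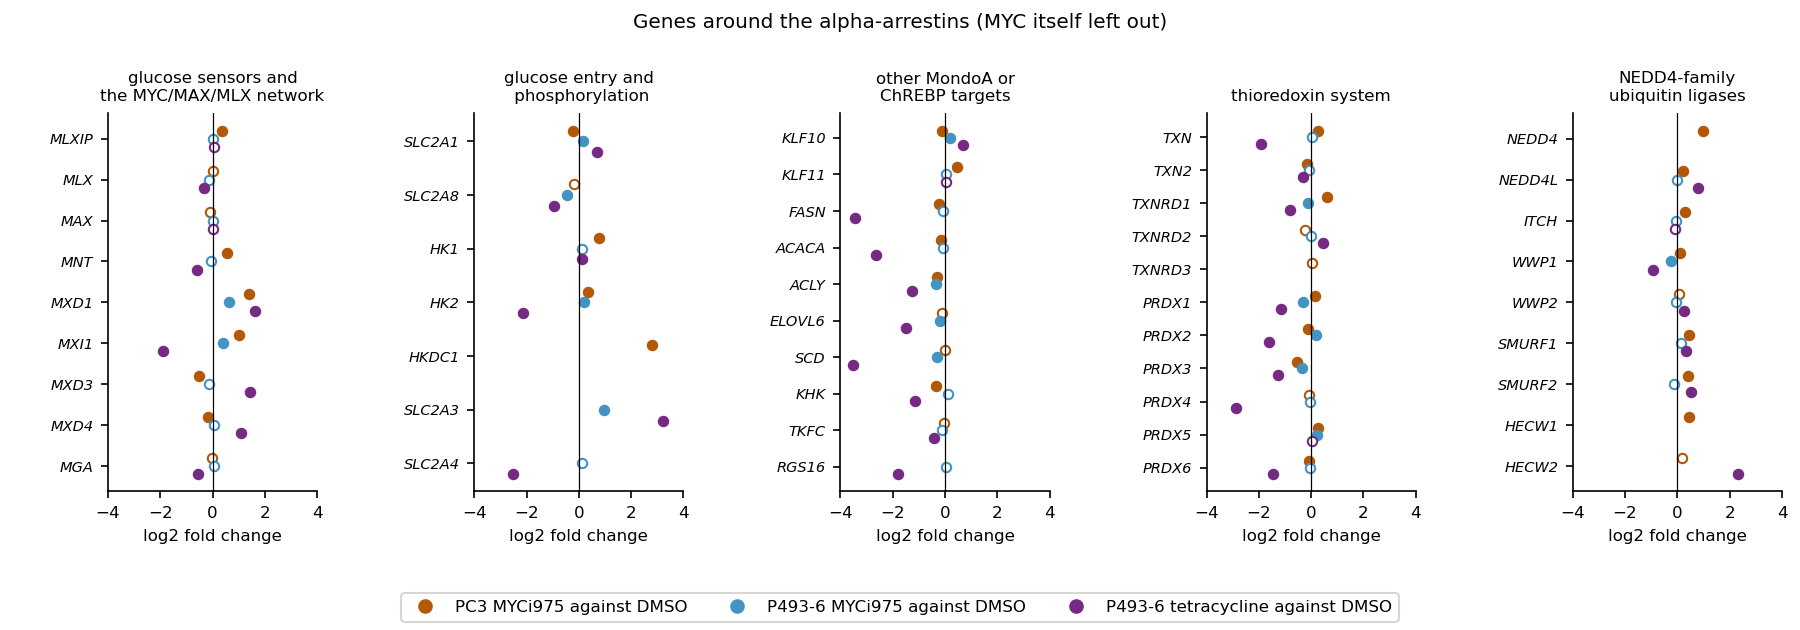
Log2 fold changes against DMSO of the genes in 5 of the lists, 1 row per gene and 1 colour per comparison; filled points are called at an adjusted p below 0.05, open points are not, and MYC (−4.98 with tetracycline) is left out. Most thioredoxin and MondoA or ChREBP target genes lie left of 0 with tetracycline, and 7 of 9 ligases lie right of 0 as called rises in PC3.

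Known cargo and partner genes of the family were followed as well. DDIT4, which encodes a stress-induced brake on mTOR signalling and a TXNIP partner, rose in all 3 comparisons, by 3.29 in PC3 and by 1.25 and 0.98 in P493-6 with MYCi975 and tetracycline. SLC11A2, an iron transporter, rose in PC3 (0.58) and fell with tetracycline (−1.80). Of this list 6 of 8 rose and 2 fell in PC3, 2 of 5 rose and 1 fell in P493-6 with MYCi975, and 3 of 5 rose and 1 fell with tetracycline. The shares of all genes called were 59.2%, 28.6% and 78.1% in the same order. Of 8 other genes with an arrestin fold 5 were measured, and the same shares of all genes apply to their counts. In PC3 2 rose and 1 fell, with the beta-arrestin ARRB1 at −0.59. In P493-6 with MYCi975 1 rose and 1 fell, VPS26B (0.31) and VPS26A (−0.40), and with tetracycline 1 rose and 3 fell, with VPS26B at −1.11 and ARRB2 at −0.53.

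Counting can be uncertain where genes overlap. In GENCODE release 29, a transcript on the same strand covers 9617 bases of ARRDC1, the antisense gene ARRDC3-AS1 covers 3011 bases of ARRDC3, ARRDC1-AS1 overlaps ARRDC1 by 29 bases, and another transcript on the opposite strand covers 442 bases of ARRDC2. The library kit keeps strand, but whether the counting used it is not given in the sources used here. Only ARRDC1-AS1 of these 4 was in the tables. It fell from 17.2 ± 1.502 to 11.1 ± 1.19 CPM with tetracycline (−0.59, adjusted p = 1.71e-05), where ARRDC1 rose, and to 12.2 ± 1.01 CPM with MYCi975 (−0.46, adjusted p = 0.000646). It had 5.51 ± 1.01 and 5.76 ± 0.339 CPM in PC3 with DMSO and MYCi975 (0.07, adjusted p = 0.701). Its difference between the lines under MYCi975 was called, at 0.53, beside 0.55 for ARRDC1.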

How the data were processed

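Total RNA of 15 samples, 3 in each of 5 groups set by line and treatment in the labels, was sequenced after exon capture. Per the submitters' processing notes, STAR, HTSeq and edgeR were used on hg38; the sources used here give no versions, annotation or strand setting. The authors deposited CPM values per gene. All values are whole multiples of 1 read within a tolerance of 0.001 reads (100% of genes), and every gene has a CPM above 1 in at least 2 libraries of its table. The deposited tables also hold the authors' log2 fold changes and adjusted p-values.

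Members and lists were chosen with earlier results of these data known. The fit was limma 3.58.1 in R 4.3.3 (trend, robust) on log2(CPM + 1) over all genes of a table, two-sided, with Benjamini-Hochberg adjustment and calls below 0.05. It was tested on simulated data. Alternatives were other pseudocounts, a CPM filter, TMM, edgeR 4.0.16 and DESeq2 1.42.0 on recovered reads, limma without trend and robust, a replicate block, all P493-6 libraries together, and leaving out each library. Replicate libraries differed by more than counting (chi-square per gene 2.07 to 6.06). Named genes are all members, up to 4 called genes per list with the largest change, the 5 most correlated genes per member, and MYC; a few of these are not reported here. Of the listed genes 4 were matched by identifier. Promoter sequences are from RefSeq (GRCh38.p14) and exon lengths from GENCODE release 29.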

Additional observations from a re-analysis of the deposited data

Results flagged for a closer look

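The effect of MYCi975 differed between the lines for 2 members by a test of the difference itself, the interaction of line and treatment in limma. ARRDC1 differed by 0.55 on the log2 scale (adjusted p = 0.00941): all 3 treated PC3 libraries were above their controls, while the P493-6 groups overlapped. ARRDC3 differed by 0.37 (adjusted p = 0.00213), with the same arrangement of libraries. The difference was called for 36.3% of all genes, and the doses were 8 µM in PC3 and 6 µM in P493-6, so line and dose cannot be told apart.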

How the results depend on the processing

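Called changes of the members kept their direction and their call under every alternative in which the gene was tested, with an exception. This was TXNIP in P493-6 with MYCi975 in limma without trend and robust settings (−0.32, adjusted p = 0.0648). That setting also gave 831 rises and 1224 falls over all genes in that comparison, and DESeq2 on recovered reads gave 1177 falls, against 1375 and 2338. The cause was not tested. With edgeR on recovered reads the counts were 1814 and 1689 there, 4051 and 4052 in PC3, and 5381 and 5346 with tetracycline. The sign of 2 changes that were not called varied. ARRDC1 in P493-6 with MYCi975 was 0.03 with TMM scaling (0.0254), 0.02 with edgeR (0.0248) and 0.03 with DESeq2 (0.0253), and −0.09 to 0.04 on leaving out single libraries (−0.0873 to 0.0412). ARRDC4 in the difference between lines was −0.11 to 0.22 on leaving out single libraries (−0.109 to 0.216). With the replicate block all 25 changes kept their side of the threshold, and TXNIP in P493-6 with MYCi975 had an adjusted p of 0.0026. Deviations of samples with the same number were hardly correlated (r −0.112 to 0.0559). With 3 libraries a group this does not settle whether those samples were paired. A mean of at least 5 CPM removed ARRDC4 from 4 of the 5 comparisons, including those in which it was called. Low counts limit ARRDC4 most, with 21 reads in its lowest library.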

Other observations

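The paired element of the TXNIP promoter is held by the windows of 16 genes, of which 11 were measured in each table. With tetracycline 4 of these rose and 4 fell, against 36.2% and 41.9% of all genes, and the rise of TXNIP (2.79) was the largest. STX12, a vesicle fusion protein, rose by 1.03. RAN, the GTPase of nuclear transport, fell by 1.59, and GFPT1, the entry enzyme of hexosamine synthesis from glucose, fell by 0.49. With MYCi975 in PC3, 3 rose and 3 fell, against 29.0% and 30.1% of all genes, and GFPT1 rose by 1.40 while TXNIP and RAN (−0.44) fell. In P493-6 with MYCi975, 3 rose and 3 fell, against 10.6% and 18.0% of all genes, with P4HA1, a collagen-modifying enzyme, at 0.78 and RAN at −0.23. These genes were named after their values were seen, and the element was chosen with knowledge of TXNIP.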
